A study of Mus musculus with 30 samples.

Results

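Bone-marrow-derived macrophages (BMDMs) of *Mertk* -/-V3 mice were compared with those of wild-type C57BL/6 mice (B6 WT) across all measured genes. The comparison holds 6 libraries, 3 of each genotype, out of 12 BMDM libraries and 30 libraries in the series, and its members were chosen by the genotype in the sample labels alone. The *Mertk* -/-V3 line was made by CRISPR/Cas9 in fertilized C57BL/6NJ eggs with a deletion aimed at exons 3 and 4 of *Mertk*, which shifts the reading frame. By genome-wide SNP typing in the methods its genome is a mixture of C57BL/6J and C57BL/6NJ, although the sample labels give C57BL/6J for every group, and B6 WT mice were C57BL/6J. The knockout differs from its control in the targeted allele and in substrain alleles at the same time, and the groups cannot tell the 2 apart. The other BMDM libraries came from *Mertk* -/-V1 (an older knockout made in 129P2 embryonic stem cells, with the neomycin cassette in the locus) and *Mertk* -/-V2 mice (a deletion of exon 18 derived from a C57BL/6NJ floxed allele), 3 libraries each. Bone marrow of adult mice of all 4 groups was cultured for 7 days in L929-conditioned medium, which supplies the growth factor CSF1, and macrophage differentiation is the only treatment labelled. Retinal pigment epithelium (RPE) of *Mertk* -/-V3 and B6 WT mice at P25 is used only to give a second tissue for the same genes.

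MERTK is a receptor tyrosine kinase of the TAM family, named after TYRO3, AXL and MERTK. Through the bridging ligands GAS6 and PROS1 it binds phosphatidylserine on dying cells, drives their engulfment by macrophages (efferocytosis) and restrains innate immune responses. Macrophages grown from bone marrow express it strongly, and they also carry other receptors, complement components and integrins for apoptotic cells, lysosomal enzymes for degrading what was taken up, and sterol sensors of the LXR family that dispose of the cholesterol.

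Each value below is a normalized count, the number of reads of a gene in a library divided by the size factor of that library. The 3 B6 WT libraries held 21187031 to 24869776 reads on genes and the 3 *Mertk* -/-V3 libraries 18853659 to 25653814. Log2 values of the 6 libraries correlated at 0.986 to 0.994 across genes, which are not independent replicates. B6 WT replicate 3 stood apart from B6 WT replicates 1 and 2 for many of the genes below. The cells matched their label. The 15 macrophage identity markers were all measured (*Csf1r*, the CSF1 receptor, 27215 to 28426; *Lyz2*, a lysozyme, 151558 to 173237), 0 of them passed the limma test in either direction, and their median log2 fold change was 0.01, beside 0.00 over all genes. By edgeR and DESeq2 also 0 of the 15 passed, and 4 had an unadjusted p under 0.05, as did 15.9% of all genes. Markers of other cells were rare. The summed normalized counts per library were 9 to 20 for 10 T and NK cell markers, 0 to 8 for 8 stromal markers, 7 to 14 for 8 mast cell and basophil markers and 5 to 15 for 9 erythroid and megakaryocyte markers. Those for 10 dendritic cell markers ranged from 97 to 111 in B6 WT and from 124 to 137 in *Mertk* -/-V3, and those for 12 neutrophil markers from 1066 to 1288 and from 1201 to 1365. Of the B cell markers, *Ighm* read 1421 to 2561 and 2802 to 3255 (adjusted p = 0.211), while *Ms4a1* and *Pax5* had at most 1 read in any library. The part of such cells in the results was not tested. *Xist* read 2822 to 4070 in the 6 libraries and the 4 Y-linked genes measured gave at most 1 read, a female pattern in each.

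*Mertk*, the targeted gene (chromosome 2, 128698956 to 128802894, GRCm38), was lower in every knockout library. B6 WT replicates 1 to 3 read 2414, 2649 and 2881 (2648 ± 233, SD, n = 3), and *Mertk* -/-V3 replicates read 651, 685 and 723 (687 ± 36.1). The groups lay far apart. The *Mertk* -/-V3 mean was 25.9% of that of B6 WT, a log2 fold change of -1.94 (SE 0.0593, adjusted p = 2.54e-10, limma). Gene-level counts do not show whether the remaining transcript holds exons 3 and 4. The other TAM genes did not pass the test. *Axl* read 118 to 164 in B6 WT and 92.7 to 156 in *Mertk* -/-V3, with a log2 fold change of -0.29 (SE 0.238, adjusted p = 0.589). *Tyro3* stayed under the minimum for testing, at 6.10 ± 1.02 and 8.44 ± 1.24 (n = 3 each). The ligand genes *Gas6* (38736 ± 2401 against 42924 ± 1276) and *Pros1* (1205 ± 101 against 1179 ± 70.2) had log2 fold changes of 0.15 (adjusted p = 0.494) and -0.03 (adjusted p = 0.883). On the scale of normalized count per kilobase of exon, the mean levels in B6 WT were 611 for *Mertk*, 28.0 for *Axl* and 0.984 for *Tyro3*. In *Mertk* -/-V3 they were 158, 23.2 and 1.36, so the *Mertk* transcript remained the most abundant of the 3 receptor transcripts. These are RNA levels and not protein. By flow cytometry the authors reported that MERTK was ablated in *Mertk* -/-V3 BMDMs. Within 1 Mb of *Mertk*, 26 other genes were tested, 0 were higher and 1 was lower in the knockout by limma, beside 0.537% and 0.633% of all genes. That gene was *Bub1*, a mitotic checkpoint kinase gene described below with the cell cycle genes. *Sirpa*, a receptor for CD47 in the same stretch, read 51890 to 53643 and 55006 to 55970 (log2 fold change 0.07, adjusted p = 0.515).

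Across the transcriptome few genes passed the limma test, and the number that passed varied with the method. Of 13420 genes tested, 157 (1.17%) passed an adjusted p of 0.05. Of these, 72 (0.537%) were higher and 85 (0.633%) lower in *Mertk* -/-V3. Only 21 genes (0.156%), 12 higher and 9 lower, also passed a log2 fold change of 1.25 in either direction and are called differentially expressed genes (DEGs). The other 136 moved less and are called moderate changes. The values nearest to the fold threshold were those of *Cd38* (1.29) on the inside and *Ccr3* (1.23) on the outside. Of the 21 DEGs, 14 stayed DEGs whichever of the 6 libraries was left out, and the count of DEGs was 41 without B6 WT replicate 3 and 16 to 19 without any 1 of the other 5 libraries. The moderate changes depended far more on single libraries. Without B6 WT replicate 3, 111 of the 136 still passed, and 17, 19, 29, 28 and 31 still passed without B6 WT replicate 1, B6 WT replicate 2, *Mertk* -/-V3 replicate 1, replicate 2 and replicate 3. A set of 13 passed in all 6 fits. With all libraries kept, edgeR called 172 genes and DESeq2 401.

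**Figure D1:**
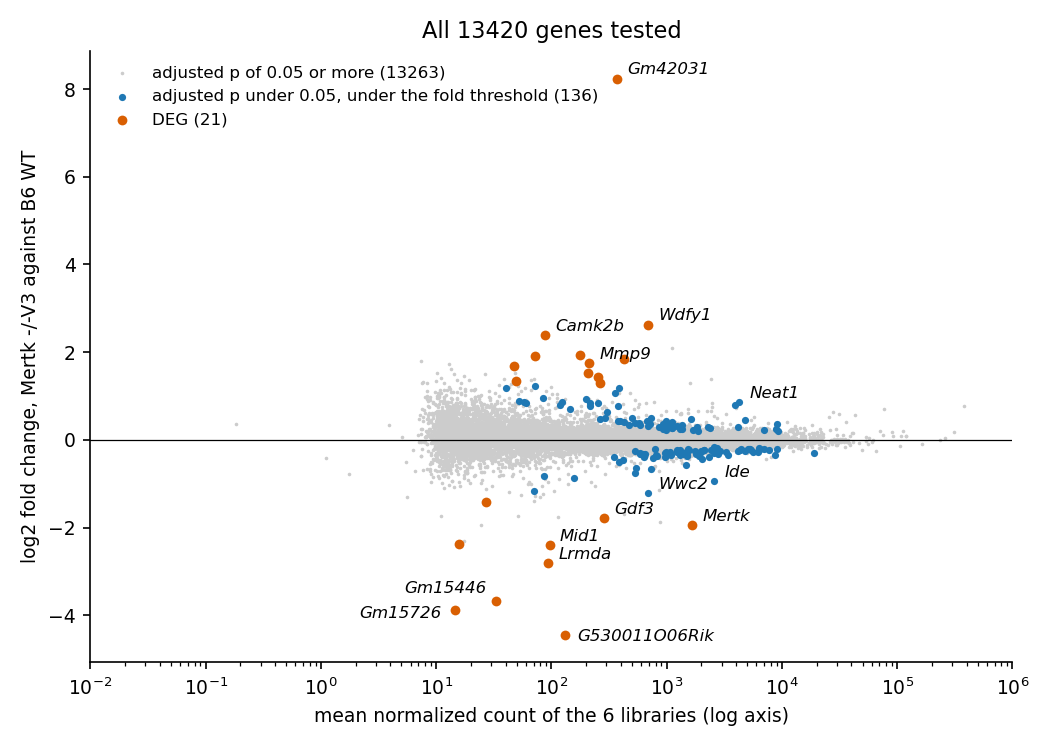
Log2 fold change of *Mertk* -/-V3 against B6 WT BMDMs (vertical axis) against the mean normalized count of the 6 libraries (horizontal log axis) for the 13420 genes tested. Orange points are the 21 DEGs, blue points the 136 moderate changes and grey points the rest, and most of the blue points lie within a narrow band about 0 while *Mertk*, *Wdfy1* and *Gm42031* stand clear of it.

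Among the 12 higher DEGs, 2 stood out. *Gm42031*, a long intergenic RNA gene (chromosome 8, 85125872 to 85132289), had 1 to 2 reads in each B6 WT library and 564 to 941 reads in each *Mertk* -/-V3 library. As normalized counts these were 1.64, 0.815 and 1.95 against 616, 836 and 756, a ratio of summed reads of 512 with a 95% exact binomial interval of 219 to 1579 that covers counting error only (adjusted p = 0.000344, limma). It was also raised above B6 WT in some V2 libraries, at 195, 7.06 and 234, and read 1.17 to 5.00 in V1. *Wdfy1*, which encodes an adaptor of Toll-like receptor signalling and is among the genes listed here as differing between the C57BL/6J and C57BL/6N substrains, read 174, 195 and 200 in B6 WT and 1146, 1240 and 1151 in *Mertk* -/-V3. It was 6.21 times higher (log2 fold change 2.63, SE 0.0998, adjusted p = 2.43e-09), with values from 200 to 270 in the 6 V1 and V2 libraries.

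*Camk2b*, a subunit of the calcium and calmodulin-dependent kinase II, rose from 22.2, 31.0 and 30.3 to 137, 147 and 161 (log2 fold change 2.38, adjusted p = 4.56e-05). *Mmp9*, the gelatinase that macrophages and osteoclasts secrete to cut matrix collagen, read 78.9, 75.0 and 148 in B6 WT and 321, 325 and 327 in *Mertk* -/-V3 (log2 fold change 1.75, SE 0.283, adjusted p = 0.0102). B6 WT replicate 3 was the highest control for this gene but still below every knockout library. *Cd38*, an ectoenzyme that consumes NAD, showed the same order, with 127, 118 and 227 against 366, 367 and 376 (log2 fold change 1.29, SE 0.28, adjusted p = 0.0421). *Efcab7*, which anchors a ciliary complex of Hedgehog signalling, read 19.5 to 23.8 against 66.6 to 78.9 (1.68, adjusted p = 0.00559). *Dnaaf3*, an assembly factor of axonemal dynein, read 22.8 to 32.2 against 65.0 to 84.4 (1.34, adjusted p = 0.0268), and *Cnbd2*, with a cyclic-nucleotide-binding domain, 21.5 to 39.1 against 102 to 124 (1.91, adjusted p = 0.0117). The long intergenic RNA genes *Gm46620* and *Gm49980* were 3.79 and 3.61 times higher (adjusted p = 0.00265 and 0.000248), and *Gm49980* read 288 to 611 in V2 and 211 to 250 in V1. For all of these the 3 knockout libraries lay above the 3 controls. The groups did not overlap for any of the 21 DEGs or 136 moderate changes. Those genes were picked by the test on these libraries, so the separation is no further support.

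The last higher pair, *Dynlt1b*, a light chain of cytoplasmic dynein, and the pseudogene *Tmem181b-ps*, are neighbours on chromosome 17 (6430112 to 6467022). *Dynlt1b* read 129, 134 and 142 against 334, 430 and 341 (log2 fold change 1.44, adjusted p = 0.000173), and *Tmem181b-ps* 110, 102 and 106 against 261, 327 and 335 (1.52, adjusted p = 0.00341). Both belong to families of near-identical copies between which reads may be split, so their levels are uncertain. The other family members on that chromosome showed log2 fold changes of 0.02 for *Dynlt1a*, -0.15 for *Dynlt1c*, -0.04 for *Dynlt1f* and 0.02 for *Tmem181a*, with adjusted p from 0.664 to 0.943.

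Apart from *Mertk*, 8 DEGs were lower, and 4 of them lie together on the X chromosome between 169685199 and 170005736. *Mid1*, an E3 ubiquitin ligase bound to microtubules whose gene spans the boundary of the pseudoautosomal region in this species, read 157, 153 and 175 in B6 WT and 22.9, 26.7 and 42.6 in *Mertk* -/-V3 (log2 fold change -2.41, SE 0.185, adjusted p = 8.16e-06). *G530011O06Rik*, a transcript annotated on the opposite strand within *Mid1*, fell from 248, 174 and 330 to 7.65, 9.59 and 14.5, or to 4.22% of the B6 WT mean (-4.44, SE 0.254, adjusted p = 2.97e-07). The antisense genes *Gm15726* (22.2, 22.8 and 36.1 against 0, 0 and 5.62) and *Gm15247* (27.1, 24.5 and 28.3 against 5.46, 2.13 and 6.43) fell as well, with adjusted p of 0.00988 and 0.0149. For *Gm15726* the ratio of summed reads was 11.7 in favour of B6 WT, with a 95% exact binomial interval of 5.48 to 30.0 for counting error only. These 4 were the only genes tested in that interval. Whether the reads were counted by strand is not given in the sources used here, so reads of *Mid1* and of its 3 antisense partners cannot be told apart.

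*Lrmda*, a gene needed for melanocyte differentiation in humans, read 171, 174 and 147 in B6 WT and 27.3, 16.0 and 25.7 in *Mertk* -/-V3 (log2 fold change -2.81, SE 0.177, adjusted p = 8.44e-07). *Gdf3*, a ligand of the TGF-beta superfamily that macrophages express, fell from 443, 431 and 440 to 130, 104 and 150, or 29.3% (-1.78, SE 0.118, adjusted p = 1.35e-06). *Gm15446*, a coding gene on chromosome 5, read 52.6, 67.7 and 59.6 against 14.2, 1.07 and 2.41 (-3.67, SE 0.514, adjusted p = 0.0033). *Mertk* -/-V3 replicate 1 was the highest of the 3 knockout libraries there, and without it the log2 fold change was -4.51. *Zfp932*, the zinc-finger gene next to it within 109923400 to 110010411, was a moderate change, at 87.1, 99.4 and 105 against 49.2, 53.3 and 29.7 (-1.16, adjusted p = 0.0136), which passed in 4 of the 6 fits with a library left out. *Tmem267* had the smallest fold among the lower DEGs, with 29.6, 43.2 and 46.9 against 16.4, 11.7 and 14.5 (-1.41, adjusted p = 0.0288). It shares the stretch from 119335448 to 119611059 on chromosome 13 with *Nnt*, the nicotinamide nucleotide transhydrogenase gene that carries a deletion in C57BL/6J, and *Nnt* was near 0 in both groups (4.89 to 6.84 in B6 WT and 4.26 to 4.82 in *Mertk* -/-V3).

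**Figure D2:**
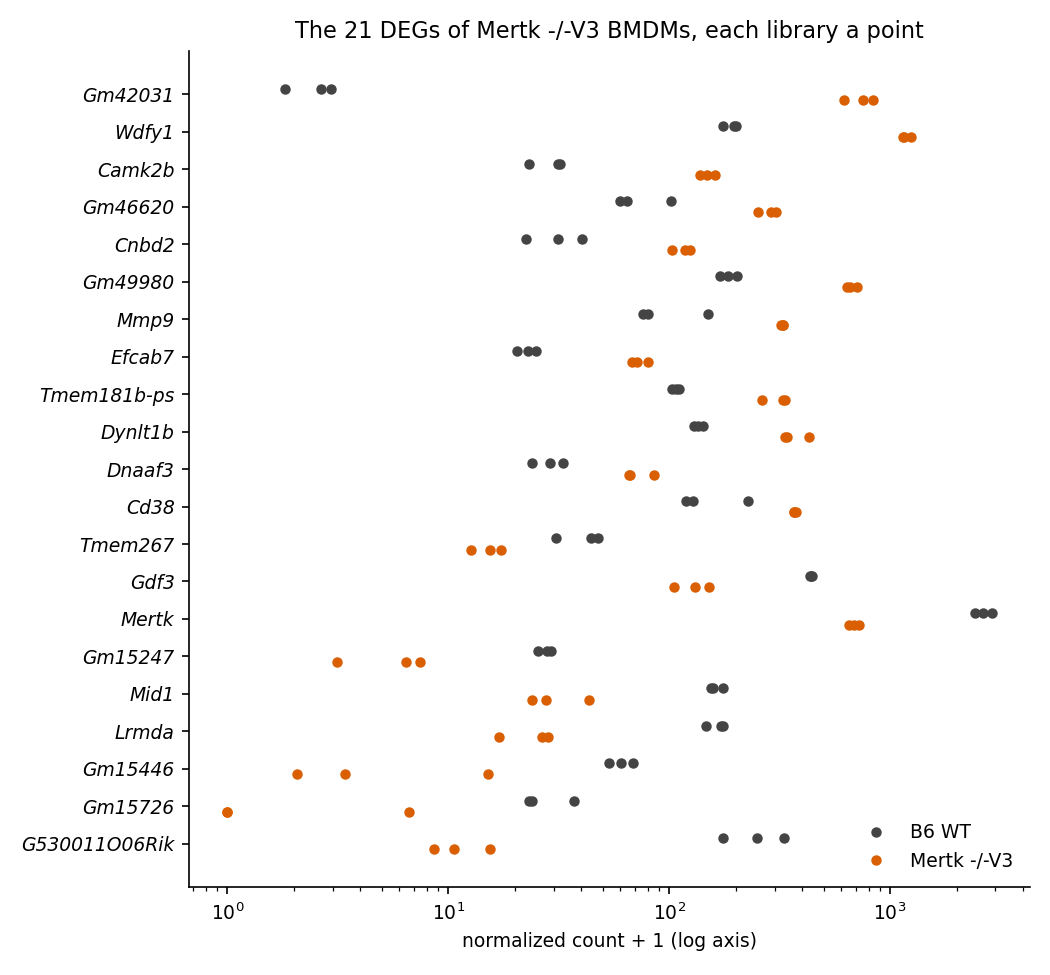
Normalized count plus 1 (horizontal log axis) of the 21 DEGs in each of the 3 B6 WT (grey) and 3 *Mertk* -/-V3 (orange) libraries, ordered by fold change. Every gene, picked by the test on these libraries, separates into its 2 groups. The margin is widest for *Gm42031* and narrowest for genes such as *Cd38* and *Tmem267*.

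Leaving out a library moved the adjusted p of 7 DEGs above 0.05, with the direction kept in every fit. For *Cnbd2* this was B6 WT replicate 1 (log2 fold change 1.94, adjusted p = 0.0584), *Mertk* -/-V3 replicate 1 (1.90, 0.0566) and replicate 3 (1.86, 0.0577). For *Mmp9* it was B6 WT replicate 1 (1.61, 0.0692), B6 WT replicate 2 (1.57, 0.0712) and *Mertk* -/-V3 replicate 2 (1.75, 0.0509). For *Gm15247* it was B6 WT replicate 1 (-2.36, 0.088), B6 WT replicate 2 (-2.43, 0.0822) and *Mertk* -/-V3 replicate 2 (-1.99, 0.0682), and for *Gm15726* it was *Mertk* -/-V3 replicate 2 (-3.41, 0.0516). *Dnaaf3* and *Cd38* passed only when B6 WT replicate 3 was the library left out, with adjusted p up to 0.146 and 0.207 in the other fits. *Tmem267* passed in none of the 6, with adjusted p from 0.0519 to 0.162.

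The *Mertk* -/-V1 and *Mertk* -/-V2 libraries allow the same genes to be read without the B6 WT libraries. Against the mean of V1 and V2, 728 genes (5.42%) passed an adjusted p of 0.05 in *Mertk* -/-V3, 342 higher (2.55%) and 386 lower (2.88%), and 37 (0.276%) were DEGs. Among the 21 DEGs against B6 WT, 17 passed in the same direction against V1 and V2 and 0 in the opposite one. Both comparisons use the same *Mertk* -/-V3 libraries, by which the 21 were picked. The shared direction is therefore not an independent test. *Wdfy1* (log2 difference 2.27, adjusted p = 1.71e-09), *Lrmda* (-2.71, adjusted p = 1.5e-07) and *Mid1* (-2.31, adjusted p = 1.76e-06) differed there by about as much as against B6 WT. Of these, *Lrmda* read 131 to 176 and *Mid1* 111 to 204 in the V1 and V2 libraries. *Mertk* read 847 to 883 in V1 and 3532 to 3589 in V2, and *Gdf3* 835 to 1035 in V1 and 224 to 258 in V2, so their mean of V1 and V2 joins unlike groups. The same holds for *Gm15247* (means of 23.1 in V1 and 0.317 in V2, on either side of the 4.67 in *Mertk* -/-V3), *G530011O06Rik* (283 and 32.9), *Gm15726* (33.6 and 8.07) and *Gm42031* (3.18 and 145). The 4 that did not pass were *Cnbd2* (0.84, adjusted p = 0.0907), *Cd38* (0.73, adjusted p = 0.0939), *Tmem267* (-0.15, adjusted p = 0.764) and *Gm15247* (-0.04, adjusted p = 0.959).

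In the RPE of *Mertk* -/-V3 mice, 13 of 18832 genes (0.0690%) passed an adjusted p of 0.05 against B6 WT, and 19 of the 21 BMDM DEGs were tested. Of these 6 passed, all in the same direction as in BMDMs. *Wdfy1* read 307 to 448 (median 345, n = 6) in B6 WT and 1637 to 1880 (n = 3) in *Mertk* -/-V3 RPE, a log2 fold change of 2.29 (adjusted p = 1.55e-05). *Gm15446* fell from 239 to 421 (median 270) to 1.12 to 3.08 (-6.76, adjusted p = 2.9e-09). *Mertk* itself (-2.01, adjusted p = 0.00222), *Lrmda* (-1.83, adjusted p = 0.0183), *Gm15247* (-3.12, adjusted p = 0.00952) and *Tmem181b-ps* (1.78, adjusted p = 0.011) were the others. *Mid1* was not among them, with 216 to 443 in B6 WT and 258 to 308 in *Mertk* -/-V3 RPE (-0.06, adjusted p = 0.897). With only B6 WT replicates 1 to 3 or 4 to 6 as controls, 3 and 2 of the 6 passed. The RPE libraries showed a male pattern, unlike those of BMDMs. The Y-linked *Ddx3y* read 2322 to 2666 in B6 WT and 2118 to 2662 in *Mertk* -/-V3 RPE, and *Xist* 20.4 to 34.5 and 14.5 to 53.6. The 2 tissues therefore differ in sex as well, which cannot be told apart from tissue here, also for the X-linked *Mid1* and *Gm15247*.

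The moderate falls were led by *Wwc2*, a relative of the Hippo pathway regulator KIBRA, at 985, 955 and 933 against 426, 400 and 420 (43.4%, log2 fold change -1.20, SE 0.0569, adjusted p = 3.08e-08). It read 1016 to 1150 in the V1 and V2 libraries, and its difference from them was -1.34 (adjusted p = 1.71e-09). *Ide*, the insulin-degrading enzyme and a listed substrain gene, read 3415, 3131 and 3653 against 1694, 1909 and 1749 (-0.93, adjusted p = 3.52e-05). *Btaf1*, a regulator of TATA-binding protein on the same stretch of chromosome 19, read 1682 to 1931 against 1147 to 1269 (-0.57, adjusted p = 0.0022). Of the other substrain genes, *Cyfip2* had a log2 fold change of -0.15 (adjusted p = 0.456) and *Entpd4*, *Crb1* and *Nlrp12* had 0 to 2 reads per library. 2 innate immune receptors of myeloid cells fell, *Pilra*, an inhibitory receptor (819, 976 and 873 against 546, 591 and 546, log2 fold change -0.66, adjusted p = 0.000198), and *Clec4e*, the sensor Mincle for mycobacterial glycolipid and dead cells (700, 658 and 625 against 410, 441 and 429, -0.63, adjusted p = 0.000981). These 5 genes, *Wwc2*, *Ide*, *Btaf1*, *Pilra* and *Clec4e*, passed in all 6 fits with a library left out. The remaining large falls were *Mpp7*, a scaffold of cell polarity (-0.86), the drug efflux pump *Abcb1a* (-0.83), the integrin chain *Itga8* (-0.76) and *1110038F14Rik* (-0.50), with adjusted p from 0.0118 to 0.042. They passed in 1 to 3 of the 6 fits.

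Among the 10 largest moderate rises, B6 WT replicate 3 was the highest control for 6. *Ccr3*, a receptor for eotaxins, averaged 43.3 ± 13.3 in B6 WT, with 58.6 in replicate 3, and 100.2 ± 3.51 in *Mertk* -/-V3 (log2 fold change 1.23, adjusted p = 0.035). *Ctse*, the endosomal protease cathepsin E, read 19.7, 24.5 and 28.3 against 49.2, 59.7 and 59.5 (1.19, adjusted p = 0.0182). *Cd5l*, a secreted scavenger protein that supports macrophage survival, read 227, 198 and 269 against 486, 423 and 698 (1.19, adjusted p = 0.0361). *Neat1*, the RNA that builds paraspeckles, read 2814, 2731 and 3575 against 4748, 5372 and 6431 (0.86, adjusted p = 0.00492). It was the only one of the 10 largest moderate rises to pass in all 6 fits. Its difference from V1 and V2 (4468 to 7952) was -0.20 and did not pass (adjusted p = 0.322). The other 6 were *Atp6v0d2* (1.06), *Tmem8b* (0.95), *BC021767* (0.93), *Gm10419* (0.88), *Syt8* (0.87) and *Gm43305* (0.87), with adjusted p from 0.0142 to 0.0494, and they passed in 1 to 3 fits, as *Ccr3*, *Ctse* and *Cd5l* did. *Gm43305*, at 126, 75.8 and 66.4 against 153, 176 and 147, was the only one of the 10 to lose its call without B6 WT replicate 3 (adjusted p = 0.0812).

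The pathways were read through 35 lists of genes. Beside the share called over all genes, 0.537% higher and 0.633% lower, few members of any list passed. At an unadjusted p under 0.05 the share over all genes was 15.9%, with 7.82% higher and 8.05% lower. In the lysosomal list, 2 of 28 rose by limma and edgeR and 5 by DESeq2. *Atp6v0d2*, a subunit of the vacuolar proton pump that is also an osteoclast marker, read 196, 209 and 292 against 455, 484 and 501 (adjusted p = 0.0455), and *Mcoln1*, the lysosomal calcium channel, 1221, 1168 and 1309 against 1455, 1465 and 1502 (log2 fold change 0.26, adjusted p = 0.0429). Both passed in 1 of the 6 fits. The log2 fold changes of 24 of the 28 were above 0, with a median of 0.09, which was 0.04 after quantile normalization.

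Among 27 other efferocytosis and scavenger receptor genes, 0 rose and 2 fell by limma and edgeR. DESeq2 also called *Cd163*, a haemoglobin scavenger receptor (0.30, limma adjusted p = 0.102). At an unadjusted p under 0.05, 3 were higher and 4 lower, beside 7.82% and 8.05% of all genes. *C1qa*, a chain of complement C1q that tags apoptotic cells, read 21287, 21529 and 19566 against 16919, 16799 and 16642 (80.7%, log2 fold change -0.31, adjusted p = 0.0194). *Itgb3*, the beta chain of the vitronectin receptor, read 474, 494 and 482 against 357, 389 and 320 (-0.45, adjusted p = 0.0224). *C1qa* passed in 1 and *Itgb3* in 2 of the 6 fits. *C1qa* read 15278 to 18953 in V1 and V2 (difference -0.02, adjusted p = 0.89), whereas *Itgb3* was also lower than there (-0.53, adjusted p = 0.000982). In the chemokine list of 19, *Ccr3* rose and *Ccr1* fell (1660, 1607 and 1743 against 1401, 1469 and 1422, -0.22, adjusted p = 0.035, passing in 0 of the 6 fits). In the integrated stress response list of 16, only *Trib3*, a pseudokinase induced by ATF4, rose, from 139, 146 and 181 to 272, 268 and 300 (0.85, adjusted p = 0.00979). It passed in 3 of the 6 fits, with adjusted p up to 0.0616 in the others. The difference of *Trib3* from V1 and V2 was -0.11 and did not pass (adjusted p = 0.657, limma). In the list of 21 matrix genes and proteases, *Mmp9* alone passed. In the heat shock list of 13, 0 rose and the chaperones *Hspd1* (5590 ± 90.3 against 4822 ± 225, -0.21, adjusted p = 0.0194) and *Hsp90aa1* (8266, 8382 and 8586 against 6796, 7405 and 7340, -0.23, adjusted p = 0.0288) fell. They passed in 2 and 0 of the 6 fits. Their differences from V1 and V2 were -0.05 and 0.004 and did not pass (adjusted p = 0.447 and 0.961, limma).

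Of 5 tested osteoclast markers only *Atp6v0d2* passed, while *Acp5* (adjusted p = 0.455) and *Ctsk* (adjusted p = 0.25) did not. The list went both ways, with 3 log2 fold changes above 0 and 2 below, from -0.69 to 1.06 (median 0.04). At an unadjusted p under 0.05 by limma, 1 was higher and 1 lower, beside 7.82% and 8.05% of all genes.

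**Figure D3:**
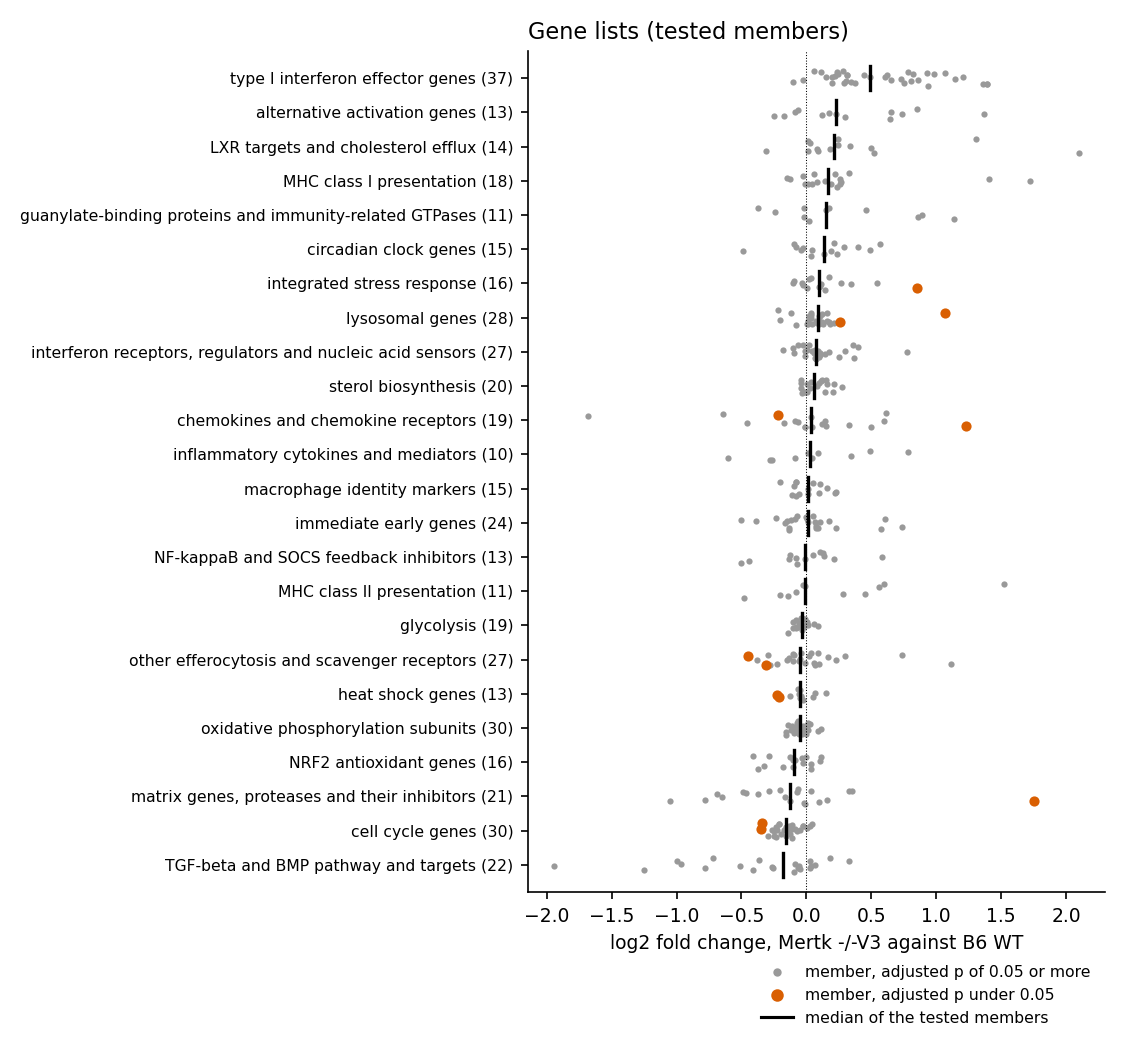
Log2 fold change of *Mertk* -/-V3 against B6 WT BMDMs (horizontal axis) for every tested member of the lists with 10 or more tested genes, the number in brackets. Orange points passed the adjusted p of 0.05 and black bars are medians, of which the highest, 0.49, is that of the interferon effector genes, a list in which 0 members passed.

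Cell cycle genes lay slightly lower in the knockout. Of 30 tested, 27 had a log2 fold change below 0, with a median of -0.16 and a range from -0.35 to 0.05, while 19 had an unadjusted p under 0.05 in that direction, beside 8.05% of all genes. After adjustment 2 fell and 0 rose. *Top2a*, the topoisomerase that separates replicated chromosomes, read 9910, 10018 and 9309 against 7452, 7877 and 7774 (79.0%, log2 fold change -0.34, SE 0.0654, adjusted p = 0.027), and *Bub1* 1419, 1481 and 1457 against 1080, 1199 and 1148 (-0.35, SE 0.0749, adjusted p = 0.042). *Mki67*, the proliferation antigen, read 13056 to 14262 against 11162 to 11560 and did not pass (-0.25, adjusted p = 0.148). In the fits with a library left out, *Top2a* passed in 1 of 6 and *Bub1* in 0 of 6. Against V1 and V2 the median of the list was -0.04, with 3 genes higher and 1 lower past the adjusted p by limma, beside 2.55% and 2.88% of all genes. The differences of *Top2a* and *Bub1* from V1 and V2 were -0.04 and -0.08 and did not pass (adjusted p = 0.724 and 0.518). Their upstream sequences are shown because these 2 carry the call of the list.
Top2a: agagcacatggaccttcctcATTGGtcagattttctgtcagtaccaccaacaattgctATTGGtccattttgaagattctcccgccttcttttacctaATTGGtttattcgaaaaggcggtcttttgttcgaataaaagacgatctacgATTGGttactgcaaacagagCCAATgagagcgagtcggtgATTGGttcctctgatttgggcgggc
Bub1: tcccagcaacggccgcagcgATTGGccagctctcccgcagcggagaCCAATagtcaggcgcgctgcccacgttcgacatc
They are RefSeq sequences of GRCm38.p6 on the minus strand, chr11:99024223-99024436 and chr2:127831868-127831947, and capitals mark the CCAAT box on either strand, 6 times in *Top2a* and 2 times in *Bub1*. Of the 24 tested list members with a promoter in the table, 19 held CCAAT within 250 bases upstream of the start (79.2%), as did 33.8% of all 32851 promoters. A member was counted if any of its promoters held the motif, while the share of all promoters counts each one singly. The 2 shares are therefore not like for like.

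Interferon effector genes were higher on average without passing. Of 37 tested, 35 had a log2 fold change above 0 and the median was 0.49, but 0 passed in either direction by limma or edgeR and 2 by DESeq2 (*Oasl1* and *Zbp1*), and 16 had an unadjusted p under 0.05, all higher, beside 7.82% of all genes. Single libraries carried much of the spread. *Ifit1*, an RNA-binding restriction factor, read 32.9, 29.3 and 49.8 in B6 WT and 99.4, 62.9 and 145 in *Mertk* -/-V3 (log2 fold change 1.39, SE 0.407, adjusted p = 0.116). *Mx1*, a GTPase that blocks orthomyxoviruses, read 41.9, 21.2 and 62.5 against 65.5, 70.4 and 137 (1.14, adjusted p = 0.173). *Oasl2* read 476, 470 and 659 against 842, 713 and 1459 (0.86, adjusted p = 0.235). In each of these, replicate 3 was the highest library of its group. Set against the B6 WT mean, the median member stood at -0.13, -0.13 and 0.27 in B6 WT replicates 1 to 3 and at 0.32, 0.29 and 0.91 in *Mertk* -/-V3 replicates 1 to 3. Without *Mertk* -/-V3 replicate 3 the median log2 fold change was 0.31, and without B6 WT replicate 3 it was 0.61. Against V1 and V2 the median was 0.02. The proximal promoters of *Ifit1* and *Ifit3* are shown as the clearest case of a shared motif in the list.
Ifit1: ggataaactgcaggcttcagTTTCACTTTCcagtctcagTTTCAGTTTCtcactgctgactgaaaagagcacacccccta
Ifit3: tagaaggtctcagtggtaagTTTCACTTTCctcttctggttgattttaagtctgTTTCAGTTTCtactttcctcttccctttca
They come from RefSeq, GRCm38.p6, plus strand, chr19:34640765-34640844 and chr19:34583353-34583436. Capitals mark the core of the interferon-stimulated response element, searched on both strands as GAAA followed after 2 free bases by GAAA and found here on the opposite strand, with 2 copies in each and no overlap. It was found in 13 of the 28 tested members that matched a promoter (46.4%) and in 2.98% of all promoters. The first share is by member, with any promoter counting, and the second by single promoter.

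The related immune lists also gave 0 calls by limma and edgeR. They were 27 interferon receptors, regulators and sensors (median 0.07), 11 guanylate-binding proteins and immunity-related GTPases (0.15), 18 MHC class I genes (0.17), 11 MHC class II genes (-0.01), 10 inflammatory cytokines (0.03) and 13 feedback inhibitors of NF-kappaB and cytokine signalling (-0.01). Counts at an unadjusted p under 0.05, which 15.9% of all genes met, were 10, 2, 8, 5, 1 and 2. DESeq2 called 0, 1, 1, 0, 1 and 0, and the MHC class I gene it called was lower.

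LXR targets gave no call either, but 13 of 14 had a log2 fold change above 0 (median 0.21). *Scd1*, the stearoyl-CoA desaturase, read 256, 227 and 1082 in B6 WT and 1859, 1478 and 1795 in *Mertk* -/-V3 (log2 fold change 2.10, SE 0.55, adjusted p = 0.0811). *Pltp*, the phospholipid transfer protein, read 695, 747 and 1374 against 2265, 1942 and 2475 (1.31, adjusted p = 0.0627). In both, B6 WT replicate 3 lay between the other controls and the knockouts. Without it the values were 2.82 (adjusted p = 0.00997) for *Scd1* and 1.62 (adjusted p = 0.0217) for *Pltp*. With all libraries, 0 of 14 passed by edgeR and 2 by DESeq2, and 3 had an unadjusted p under 0.05, all higher, beside 7.82% of all genes. The median of the LXR targets against V1 and V2 was 0.07, and 0 of 14 passed there. Among 13 genes of alternative activation, 0 passed by limma or edgeR and 1 by DESeq2, with a median of 0.23. At an unadjusted p under 0.05, 7 were higher, beside 7.82% of all genes. Their median against V1 and V2 was -0.02, with 1 gene higher and 0 lower past the adjusted p. *Mgl2*, a galactose-type lectin, read 32.9, 19.6 and 65.5 against 81.9, 87.4 and 108 (1.37, adjusted p = 0.114).

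**Figure D4:**
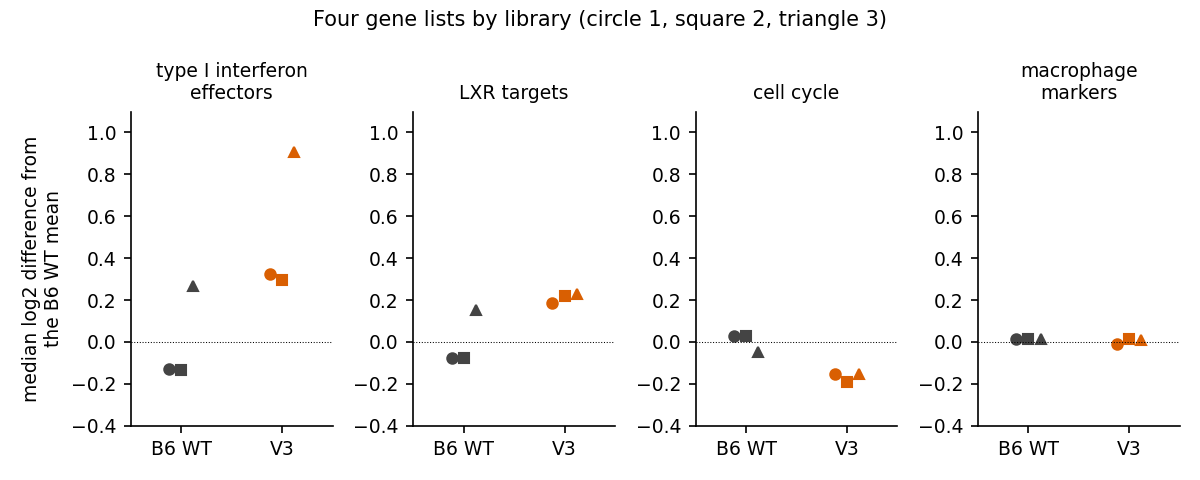
Median over the tested members of 4 lists of the log2 difference from the B6 WT mean (vertical axis), 1 point per library (circle, square and triangle for replicates 1, 2 and 3, grey for B6 WT and orange for *Mertk* -/-V3). The triangles stand highest for interferon effectors, at 0.27 and 0.91, B6 WT replicate 3 lies near the knockouts for LXR targets, and the macrophage markers stay at about 0 in every library.

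The metabolic, clock and TGF-beta lists gave no call by limma. Their medians were -0.03 for 19 glycolysis genes, -0.05 for 30 subunits of oxidative phosphorylation, 0.06 for 20 sterol biosynthesis genes, -0.10 for 16 NRF2 antioxidant genes, 0.13 for 15 circadian clock genes and -0.18 for 22 genes of the TGF-beta and BMP pathway. By limma 0 members of these 6 lists passed in either direction, and 2, 4, 0, 3, 4 and 3 had an unadjusted p under 0.05, beside 15.9% of all genes. EdgeR also called 0, and DESeq2 called 0, 0, 0, 1, 0 and 0.

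Immediate early genes, which code for transcription factors and feedback regulators switched on within minutes of a stimulus, gave no call against B6 WT in *Mertk* -/-V3 but several against the other knockouts. Against B6 WT, 0 of 24 passed by limma or edgeR and 2 by DESeq2, both lower, with a median of 0.01. At an unadjusted p under 0.05 there were 9, of which 5 were higher and 4 lower, beside 15.9% of all genes. Against the mean of V1 and V2, 10 were higher and 2 lower, beside 2.55% and 2.88% of all genes. *Fos*, a subunit of the AP-1 factor, read 3038, 2377 and 2793 in B6 WT and 3025, 2235 and 1829 in *Mertk* -/-V3. Its V1 libraries read 389, 490 and 471 and its V2 libraries 520, 476 and 483, so that *Mertk* -/-V3 lay 2.30 higher on the log2 scale than their mean (SE 0.126, adjusted p = 1.12e-07). The log2 fold change against B6 WT was -0.24 (SE 0.145, adjusted p = 0.464). *Fosb* read 567, 512 and 768 in B6 WT, 940, 500 and 345 in *Mertk* -/-V3 and 25.9 to 59.8 in V1 and V2 (difference from V1 and V2 3.85, adjusted p = 1.97e-06). *Dusp1*, a phosphatase that switches off MAP kinases, read 1995 to 2322, 1332 to 1965 and 249 to 313 (2.56, adjusted p = 2.9e-09). For all 3 genes, which were picked by this test, every *Mertk* -/-V3 library lay above every V1 and V2 library.

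The smaller differences from V1 and V2 were those of *Btg2* (0.77, adjusted p = 0.000355), an antiproliferative gene, *Klf2* (0.75, adjusted p = 0.000112), a factor of quiescence, *Zfp36* (0.68, adjusted p = 0.00013), which destabilizes cytokine mRNAs, *Jun* (0.40), *Ier3* (0.32), *Junb* (0.30) and *Ier5* (0.25), while *Myc* (-0.27) and *Atf3* (-0.24) were lower. Leaving out each of the 9 knockout libraries in turn kept *Fos*, *Fosb*, *Dusp1*, *Btg2*, *Klf2*, *Zfp36*, *Jun*, *Ier5* and *Myc* past the adjusted p in all 9 fits. *Junb* passed in 7 of 9 and failed without *Mertk* -/-V3 replicate 1 or 2, *Atf3* failed without *Mertk* -/-V3 replicate 1, and *Ier3* passed in 3. The upstream windows of *Dusp1* and *Btg2* are shown as the 2 higher genes with a full cyclic AMP response element.
Dusp1: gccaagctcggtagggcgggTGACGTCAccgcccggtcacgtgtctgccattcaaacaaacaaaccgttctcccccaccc
Btg2: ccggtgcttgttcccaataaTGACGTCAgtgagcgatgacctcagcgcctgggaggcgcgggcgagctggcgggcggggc
Both are RefSeq sequences of GRCm38.p6 on the minus strand, chr17:26508556-26508635 and chr1:134079262-134079341, and capitals mark that element, TGACGTCA, which reads the same on both strands. Among the 20 tested members with a promoter in the table it occurred in 3, the third being *Maff*, and in 1.55% of all 32851 promoters. Here too members count by any promoter and the share of all promoters by single ones.

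**Figure D5:**
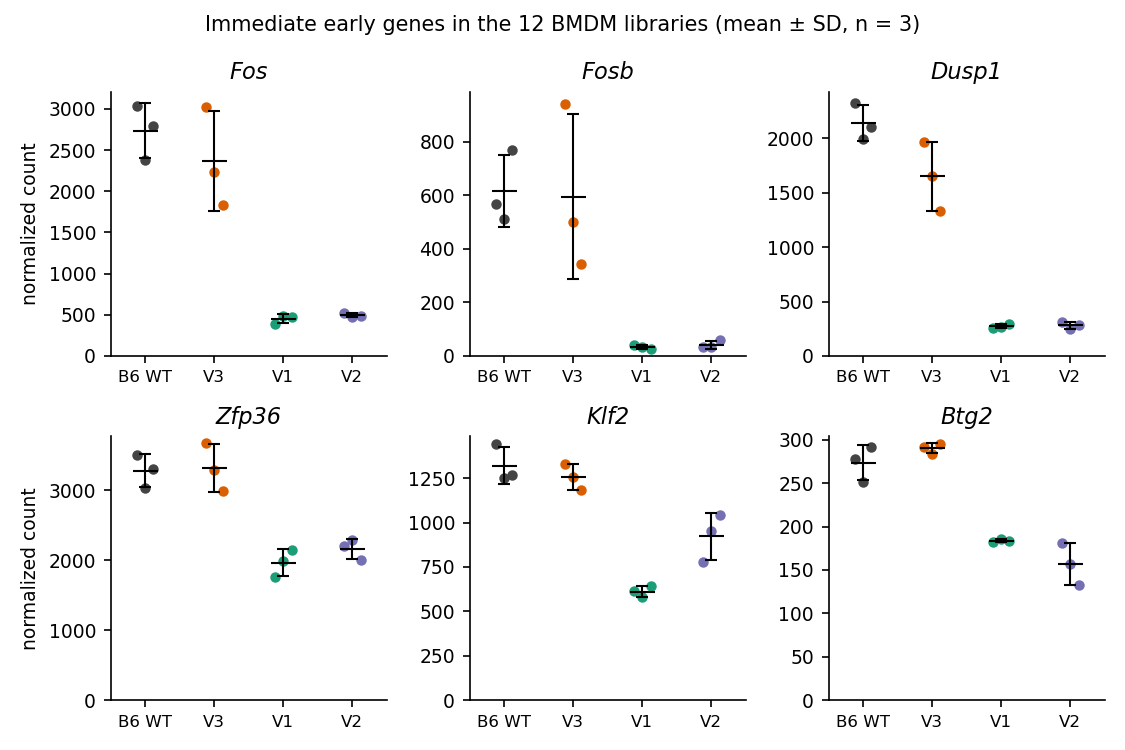
Normalized counts (vertical axes from 0) of 6 immediate early genes in the 12 BMDM libraries by genotype, with each library as a point and bars for the mean ± SD of 3 libraries. *Mertk* -/-V3 overlaps B6 WT in most panels, and V1 and V2 lie lower, for *Fos* at 389 to 520.

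Chaperone and glycolysis genes also included members higher in *Mertk* -/-V3 than in V1 and V2, by smaller differences. In the heat shock list, 4 of 13 were higher in *Mertk* -/-V3 than in V1 and V2 and 0 were lower, beside 2.55% and 2.88% of all genes. *Hspa8*, the constitutive HSC70, read 38050 to 39338 in B6 WT, 36338 to 38065 in *Mertk* -/-V3 and 28518 to 32041 in V1 and V2 (difference 0.29, adjusted p = 0.0011), and *Hspa5*, the chaperone BiP of the endoplasmic reticulum, differed by 0.21 (adjusted p = 0.00644). *Hsph1* (0.28) and *Dnajb1* (0.21) were the others. In the glycolysis list, 6 of 19 were higher (*Pfkl* 0.25, *Aldoa* 0.20, *Ldha* 0.19, *Tpi1* 0.18, *Pgk1* 0.16 and *Gpi1* 0.15) and 1, *Pfkfb3*, was lower (-0.30). *Hspa8* passed in all 9 fits with a library left out and *Hspa5* in 8, failing without *Mertk* -/-V3 replicate 2. *Dnajb1* passed in 6 and *Hsph1* in 1, and the 7 glycolysis genes passed in 2 to 8.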

How the data were processed

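RNA of BMDMs and RPE was sequenced by the authors in paired-end reads of 150 bases, trimmed with btrim and mapped to GRCm38 with STAR, and gene counts were normalized with DESeq2. The counter, annotation release and tool versions are not given in the sources used here. The deposited values are a signal, gene counts divided by a size factor, for 55573 genes, with 0 sample columns left unused. Dividing by the value of 1 read gave whole reads for 100% of values (tolerance 0.001). Groups came from the sample labels. The tests were limma 3.58.1 (trend) in R 4.3.3 on log2(value + 1), with all 12 BMDM libraries in 1 model and genes with a mean of at least 10, and Benjamini-Hochberg adjustment over all genes tested, so a fold change understates that of low genes. RPE was fitted separately. EdgeR 4.0.16 and DESeq2 1.42.0 on the recovered reads were alternatives, and all were run on simulated data. The simulated libraries had a fixed dispersion, no shifts between replicates and no small changes. They therefore do not test how reliable the moderate changes are. The labels call the libraries biological replicates without tying each to 1 animal, so p-values measure the spread between these libraries. Counting intervals and depth cover counting error only.

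The members, lists and comparisons were chosen with earlier results of these data known. Named genes are *Mertk*, every DEG, the 10 largest moderate changes each way, list members past the adjusted p, *Axl*, *Tyro3*, *Gas6* and *Pros1*, the substrain and sex-linked genes and genes within 1 Mb of *Mertk* (26 tested, given by count and example). Where a symbol had 2 identifiers the more abundant was used. Positions came from GENCODE M21, which matched 55480 identifiers. Promoters came from RefSeq. 1 marker gene is not reported here.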

Additional observations from a re-analysis of the deposited data

How the results depend on the processing

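All 21 DEGs kept their direction under every alternative tried. Their number stayed within 1.5 times with a pseudocount of 5, no filter, quantile normalization, edgeR, DESeq2 and the Y-linked covariate, which is almost constant at 0 here, but was 78 with array quality weights and 34 with only the 2 groups in the fit. DESeq2 gave no adjusted p for 3 of the 21. Genes past an adjusted p of 0.05 numbered 401 with DESeq2, 97 with the covariate, 1693 with array quality weights, 561 with only the 2 groups and 77 with a replicate block. Of the interferon effectors 23 rose with array quality weights and 3 with only the 2 groups, and of the cell cycle genes 20 and 10 fell, but 0 fell with the replicate block. That block also left 0 calls among lysosomal and chemokine genes and 1 each among efferocytosis and heat shock genes, and the covariate left 0 lysosomal calls. The cause was not tested. Same-numbered libraries did not deviate together in every pair (correlations 0.363, -0.0511 and 0.265), so the numbers were not taken as pairs, 2 of the 3 *Mertk* -/-V3 libraries correlated best with their own number, and the replicate block gave 19 DEGs, *Cd38* and *Tmem267* losing their call (as both did with the covariate, and *Tmem267* without the filter), and 34 DEGs against V1 and V2. With 1 library left out, DEGs ranged from 16 to 41, genes past the adjusted p from 33 to 251 and DEGs against V1 and V2 from 31 to 43. The number of BMDM DEGs passing in RPE was 3 with B6 WT replicates 1 to 3 and 2 with 4 to 6, fewer libraries in each case. A gene at 0 reads in a library may still hold up to 3 reads' worth there.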
